A study of Mus musculus with 24 samples.

Results

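Activin and TGF-beta signalling was followed through 10 genes in sorted neuronal and glial nuclei of the mouse hippocampus, 24 hours after kainic acid (KA) or a sham injection (SH). The genes were chosen by name for their place in the pathway, with earlier results of these data known. Their share of calls is therefore a description and no test of the pathway. They were the activin subunits Inhba and Inhbb, the TGF-beta ligands Tgfb1, Tgfb2 and Tgfb3, the activin antagonist Fst, the receptors Tgfbr1, Tgfbr2 and Acvr1c, and the inhibitory SMAD Smad7. All 10 were among the 53379 genes of the count table and among the 37598 that passed the filter on low counts and were tested. The animals were adult male C57/BL6N mice, acquired at 8 weeks of age and housed for 4 more weeks. KA mice received 70 nl of 20 mM kainic acid, an agonist of glutamate receptors, into the cortex above the right hippocampus, and those without convulsive seizures were left out of the study. SH mice received 0.9% NaCl at the same place. Right hippocampi of 8 mice per treatment were combined into 3 pools, of 4 mice for replicate 1 and of 2 mice for replicates 2 and 3. Each pool was sorted into NeuN+ nuclei (called neurons here) and NeuN- nuclei (called glia), which gave 12 libraries in 4 groups of 3. NeuN is a nuclear protein of most neurons, and the NeuN- fraction holds all other cell types together.

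Activins and TGF-betas are secreted dimers. They bind a type II receptor, which then activates a type I receptor, and the type I receptors for activin and TGF-beta (ACVR1B, ACVR1C and TGFBR1) phosphorylate SMAD2 and SMAD3, which enter the nucleus with SMAD4 and act on gene transcription. Follistatin, the product of Fst, captures activin outside the cell, and SMAD7 blocks type I receptors from within as part of a negative feedback. In the brain, Inhba is known as a gene that synaptic activity induces in neurons, whereas TGF-beta signalling is known for its part in microglial identity and in the response of astrocytes to injury.

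Total counts per library ranged from 7769400 to 40364768. SH glia replicate 1 and KA glia replicate 2 were amplified from about 0.05 ng of RNA with 15 PCR cycles, all others from about 1 ng with 10 cycles, and the replicate 3 libraries had fewer genes with a count than the others of their group. The 10 neuronal marker genes summed to between 4700 and 7550 CPM (counts scaled to library size) in neurons and to between 355 and 1420 CPM in glia. Microglial markers summed to between 45.3 and 107 CPM in neurons and to between 818 and 2500 CPM in glia. Astrocytic markers lay between 270 and 817 CPM in neurons and between 1120 and 2610 CPM in glia. Of these 8 genes, 7 were lower in every SH library of neurons than in every SH library of glia. The exception was Slc4a4, with means of 167 CPM in SH neurons and 164 CPM in SH glia. Each fraction thus held some RNA of genes that mark the other. Levels are CPM after TMM normalization over the 12 libraries. Whether a change reflects RNA per cell or the number of cells of a type cannot be told apart in pooled nuclei.

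The promoters of Inhba and Acvr1c, the members with a called difference between KA and SH, are shown first, as 300 bases of the coding strand from 250 bases before to 50 bases after the RefSeq start in GRCm38.p6, with each CpG, the dinucleotide that carries DNA methylation, in capitals. The windows lie at chr13:16011601-16011900 on the plus strand for Inhba and at chr2:58357709-58358008 on the minus strand for Acvr1c.
Inhba: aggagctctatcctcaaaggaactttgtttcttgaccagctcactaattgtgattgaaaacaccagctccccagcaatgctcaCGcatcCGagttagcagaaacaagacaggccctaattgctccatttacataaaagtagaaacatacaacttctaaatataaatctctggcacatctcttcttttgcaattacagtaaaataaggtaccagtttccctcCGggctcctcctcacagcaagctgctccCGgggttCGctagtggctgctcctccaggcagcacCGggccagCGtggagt
Acvr1c: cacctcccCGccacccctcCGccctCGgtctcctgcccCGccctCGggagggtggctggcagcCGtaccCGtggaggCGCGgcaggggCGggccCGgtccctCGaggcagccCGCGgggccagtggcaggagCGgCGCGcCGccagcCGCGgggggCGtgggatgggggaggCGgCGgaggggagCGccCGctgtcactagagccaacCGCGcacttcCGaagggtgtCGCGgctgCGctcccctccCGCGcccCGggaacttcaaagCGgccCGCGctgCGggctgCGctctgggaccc
The windows differ in base composition. That of Inhba has 47.7% G and C and 7 CpGs, which is the median of the 32851 mouse windows of this length. That of Acvr1c has 79% G and C and 39 CpGs, a number that 4.45% of all windows reach. Its start lies 137 bases from that of the GENCODE gene model, and RefSeq lists 2 windows for the gene. A search on both strands for the cyclic AMP response element TGACGTCA, the AP-1 site TGACTCA, the SMAD palindrome GTCTAGAC, the SMAD half-site CAGAC and the EGR site GCGGGGGCG found none of them in either window. They occur in 1.79%, 5.2%, 0.213%, 49.6% and 2.91% of all windows. Among the windows of Inhbb, Tgfb1, Tgfb2, Tgfbr1 and Tgfbr2, that of Tgfbr1 holds 1 EGR site (192 bases before the start), and those of Tgfb2 and Tgfbr2 hold 2 and 1 half-sites. Fst and Tgfb3 had no entry in the table of promoters, and the window of Smad7 was not searched.

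In neurons, the activin subunit Inhba rose far above its SH level, and the type I receptor Acvr1c rose with it. No member was called as lower. Inhba (ENSMUSG00000041324, chromosome 13 from 16011851 to 16031621) encodes the subunit beta A, of which activin A is a dimer. It measured 20.6, 12.6 and 26.2 CPM in SH neurons replicates 1, 2 and 3, and 314, 266 and 468 CPM in KA neurons. The lowest KA library lay an order of magnitude above the highest SH library. The difference was a log2 fold change (logFC) of 4.14 (standard error 0.52, FDR 0.00628 from edgeR quasi-likelihood, adjusted by Benjamini-Hochberg across the 37598 genes), or 17.6-fold, and only 2 genes of the table had a smaller p in this comparison. Between libraries of the same replicate number, KA was 15.2, 21 and 17.9 times SH. Inhba passed the FDR of 0.25, the threshold used in the study, in each of 6 fits that dropped a different neuronal library, with logFC from 3.87 to 4.39.

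Acvr1c (ENSMUSG00000026834, chromosome 2 from 58267453 to 58357895) encodes ALK7, a type I receptor for activins and Nodal. It had 38.4, 36.3 and 59.6 CPM in SH neurons and 121, 182 and 210 CPM in KA neurons, so that the lowest KA library was above the highest SH library. The logFC was 1.93 (standard error 0.44, FDR 0.180 by edgeR), or 3.81-fold. Acvr1c passed the threshold in 1 of 6 fits without 1 library, that without KA neurons replicate 1, with FDR values from 0.147 to 0.971 and logFC from 1.76 to 2.19. With the replicate number as a block, its FDR was 0.00524. Inhba and Acvr1c were the 2 of 10 members called as upregulated in neurons, where 0.279% of all genes tested were called in that direction and 0.0612% as downregulated.

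**Figure D1:**
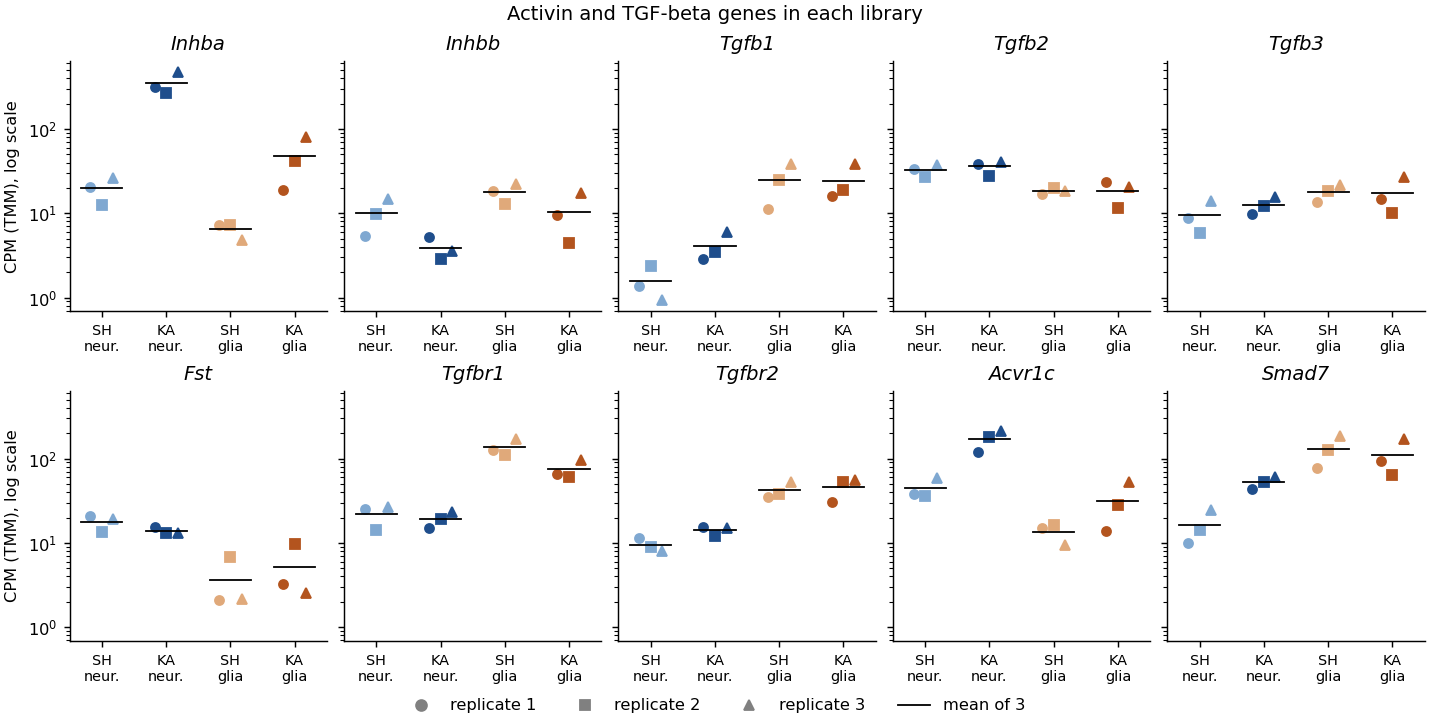
Level of each of the 10 genes in the 12 libraries, in CPM after TMM normalization on a log axis shared by all panels, with 1 symbol per replicate and a bar at the mean of the 3 libraries of a group. Inhba in KA neurons, at 266 to 468 CPM, stands above every other group of that gene, while Tgfb1, Tgfbr1, Tgfbr2 and Smad7 were lower in SH neurons than in SH glia.

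Smad7 (ENSMUSG00000025880, chromosome 18 from 75367529 to 75395935), the inhibitory SMAD that TGF-beta itself induces, had 9.93, 14.4 and 24.9 CPM in SH neurons and 44.2, 52.9 and 60.4 CPM in KA neurons. Every KA library was above every SH library, by a logFC of 1.68 (standard error 0.45), yet the edgeR FDR was 0.364. With the replicate block the logFC was 1.76 and the FDR 0.00166. Separate fits of the cell types gave an FDR of 0.0261, and DESeq2 one of 0.0487. The study, which used fewer genes, listed Smad7 as upregulated in neurons at its own threshold.

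No ligand other than Inhba passed the threshold in neurons without the block. Tgfb1, which in the brain comes mainly from microglia, had 1.39, 2.36 and 0.939 CPM in SH neurons and 2.90, 3.51 and 6 CPM in KA neurons, again without overlap (logFC 1.41, standard error 0.52, edgeR FDR 0.999, or 0.110 with the replicate block). Inhbb, which encodes the activin subunit beta B, went the other way. Its 5.39, 9.86 and 14.7 CPM in SH neurons stood against 5.21, 2.85 and 3.56 CPM in KA neurons, where replicate 1 of the 2 groups nearly touched (logFC -1.38, standard error 0.50, edgeR FDR 0.987, or 0.155 with the block). Tgfb2 had 33.8, 26.9 and 37.2 CPM in SH and 38.9, 27.8 and 41.0 CPM in KA neurons, and Tgfb3 8.90, 5.86 and 13.9 against 9.82, 12.2 and 15.4 CPM. The libraries of both genes overlapped between treatments, with logFC of 0.14 (standard error 0.32) and 0.39 (standard error 0.42).

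The antagonist and the TGF-beta receptors did not pass the threshold in neurons. Fst had 20.8, 13.3 and 19.4 CPM in SH and 15.5, 13.1 and 13.2 CPM in KA neurons (logFC -0.35, standard error 0.52), so its level did not follow that of Inhba. Tgfbr1, the type I receptor for TGF-beta, lay between 14.4 and 27.0 CPM in SH and between 15.2 and 23.4 CPM in KA neurons (logFC -0.21, standard error 0.34). Tgfbr2, the type II receptor, had 11.3, 9.06 and 7.96 CPM in SH and 15.5, 12.1 and 15.0 CPM in KA neurons, a logFC of 0.59 (standard error 0.32) without overlap and with an FDR of 1 by edgeR.

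In neurons, 5 members (Inhba, Tgfb1, Tgfbr2, Acvr1c and Smad7) were higher in every KA than in every SH library and Inhbb was lower, where 5.27% and 4.45% of all genes tested were separated in these directions. With the replicate block, Inhba, Acvr1c, Smad7 and Tgfb1 passed as upregulated and Inhbb as downregulated, where the block called 1.94% and 1.11% of all genes. Without the block, 4 members were higher and 1 lower at an unadjusted p under 0.05, as were 1.87% and 1.33% of all genes. DESeq2 called 3 members as higher and 0 as lower, where it called 1.27% and 0.609% of the 23000 genes to which it gave an adjusted p. The median logFC of the 10 members was 0.49, and that of all genes tested 0.000475.

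The ranking of the members changed between treatments when levels were set per kilobase of exon. In SH neurons, Tgfb2 (5.64 ± 0.907 CPM per kb, SD, n = 3), Acvr1c (4.82 ± 1.39) and Fst (3.88 ± 0.863) led, and the ranges of neighbours in that order overlapped from Tgfb2 down to Tgfbr2. Tgfb1 was last and apart at 0.31 ± 0.144 CPM per kb. In KA neurons, Inhba led with 54.7 ± 16.6 CPM per kb, apart from Acvr1c with 18.4 ± 4.9 and Smad7 with 11.6 ± 1.8, whose ranges overlapped. Tgfb2 followed at 6.19 ± 1.22 CPM per kb, below Smad7 without overlap. Inhba was thus the sixth of 10 in SH and the first in KA neurons.

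In glia, Inhba was the only member called. It had 7.24, 7.25 and 4.87 CPM in SH glia and 18.8, 42.0 and 81.0 CPM in KA glia, 2.59, 5.79 and 16.6 times the SH library of the same number. Every KA library was above every SH library, although the KA libraries spread widely. The logFC was 2.88 (standard error 0.50, FDR 0.0295 by edgeR), or 7.35-fold, and it stayed past the threshold in all 6 fits without 1 library of glia, from 2.24 to 3.30. Without both low-input libraries it was 3.04 with an FDR of 0.331, and without the replicate 3 libraries it was 2.07 with an FDR of 0.359.

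The level of Inhba in glia can be read beside the neuronal RNA that the NeuN- fraction held. In KA pools 1, 2 and 3, Inhba in glia was 5.99%, 15.8% and 17.3% of Inhba in neurons of the same pool. The sum of the 10 neuronal markers in glia was 7.55%, 14.7% and 22.5% of that in neurons. The share of Inhba was below this summed share in pools 1 and 3 and above it in pool 2. The sum follows its most abundant markers, and single markers differed. Slc17a7 had means of 169 CPM in KA glia and 1670 CPM in KA neurons, and Rbfox3 32 and 207 CPM. Gad2 had 23.6 and 98.5 CPM, and Tubb3 59.1 and 48.8 CPM. In SH pools, Inhba in glia was 35.1%, 57.4% and 18.6% of its level in neurons, and the markers were at 9.62%, 25.9% and 18.8%. The part of neuronal RNA in the glial difference of Inhba was not tested.

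**Figure D2:**
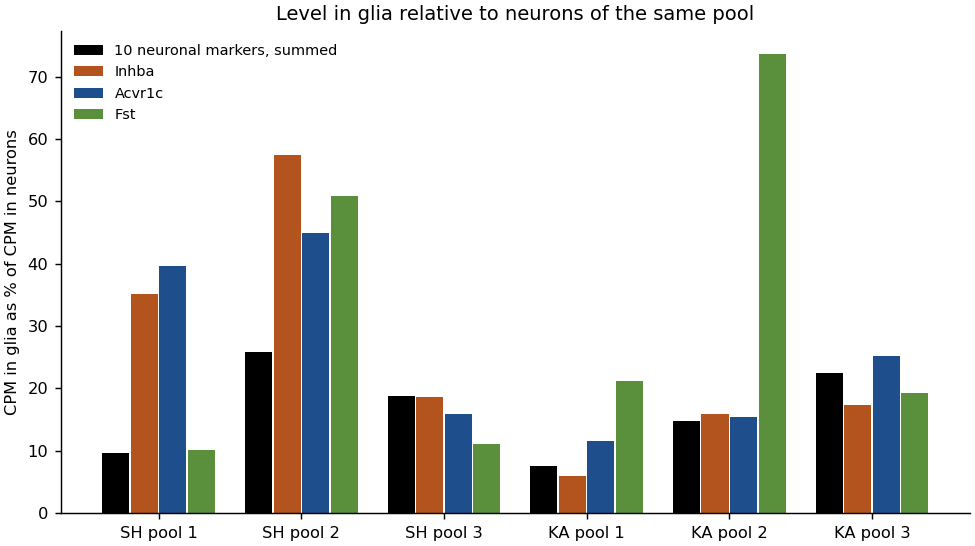
Level in glia as a percentage of the level in neurons of the same pool, for Inhba, Acvr1c, Fst and the summed CPM of 10 neuronal marker genes, in the 3 SH and the 3 KA pools, with 1 bar per gene and pool. In KA pools the bars of Inhba (5.99% to 17.3%) and Acvr1c (11.5% to 25.1%) are close to those of the summed neuronal markers (7.55% to 22.5%). Fst reaches 73.6% in KA pool 2.

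Acvr1c had 15.2, 16.3 and 9.44 CPM in SH glia and 13.8, 27.9 and 52.6 CPM in KA glia, with KA replicate 1 inside the range of SH. The logFC of 1.21 (standard error 0.44) did not pass by edgeR (FDR 0.669), but did with the replicate block (logFC 1.05, FDR 0.167) and by DESeq2 (FDR 0.183). In KA pools, Acvr1c in glia was 11.5%, 15.4% and 25.1% of its level in neurons. As for Inhba, these shares were close to those of the summed neuronal markers, and in SH pools 1 and 2 they were larger, at 39.6% and 44.9%.

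Tgfbr1 was the receptor with the highest CPM among the members in glia, and its KA libraries were lower. It had 128, 111 and 169 CPM in SH glia against 66.1, 61.1 and 96.3 CPM in KA glia, without overlap and with KA at 0.517, 0.549 and 0.572 times the SH library of the same number. The logFC was -0.87 (standard error 0.34), with an edgeR FDR of 0.797 and of 0.0726 with the replicate block. Of the glial markers, edgeR called 0 of 7 oligodendrocytic, 1 of 4 precursor, 2 of 8 microglial and 1 of 8 astrocytic genes as lower in KA glia. Of all genes tested, 0.306% were called so. With the replicate block, these numbers were 4, 3, 3 and 5, where 4.17% of all genes were called as lower, and 1 astrocytic marker was called as higher. Oligodendrocytic markers summed to between 14100 and 29400 CPM in SH and between 7370 and 13800 CPM in KA glia, those of oligodendrocyte precursors to between 784 and 1380 against 350 to 564 CPM, and those of microglia to between 1110 and 2500 against 818 to 1630 CPM, where the groups overlapped. Their part in the values of Tgfbr1 was not tested.

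For the other members of the list the glial libraries of KA and SH overlapped. Smad7 had 77.2, 127 and 185 CPM in SH and 93.3, 63.6 and 172 CPM in KA glia (logFC -0.24, standard error 0.44), and Tgfb1 had 11.2, 24.5 and 38.2 against 16.1, 18.7 and 38.0 CPM (logFC -0.02, standard error 0.48). Both genes were more abundant in glia than in neurons, and in neither were the glial libraries separated by treatment. Tgfbr2 had 35.0, 38.0 and 53.2 CPM in SH and 30.7, 52.4 and 56.3 CPM in KA glia, a logFC of 0.14 (standard error 0.32). Inhbb ranged from 12.9 to 22.2 CPM in SH and from 4.44 to 17.3 CPM in KA glia (logFC -0.76, standard error 0.49, edgeR FDR 1), with the KA library lower for each of the 3 replicate numbers. Tgfb2, Tgfb3 and Fst had logFC of 0.01, -0.05 and 0.50.

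Of the 10 members in glia, 1 was upregulated and 0 were downregulated by edgeR, where 0.442% and 0.306% of all genes tested were called in these directions. At an unadjusted p under 0.05, 2 members were higher and 1 was lower, as were 2.1% and 2.69% of all genes. By DESeq2, 2 were higher and 0 lower, where 1.95% and 3.23% of the 18631 genes with an adjusted p were called. With the replicate block, Inhba and Acvr1c were called as upregulated and Tgfbr1 as downregulated, where the block called 3.47% and 4.17% of all genes. Inhba was the 1 member with all KA libraries above SH, and Tgfbr1 the 1 with all below, where 3.61% and 3% of all genes were separated. The median logFC of the members was -0.0074, and that of all genes tested 0.14.

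**Figure D3:**
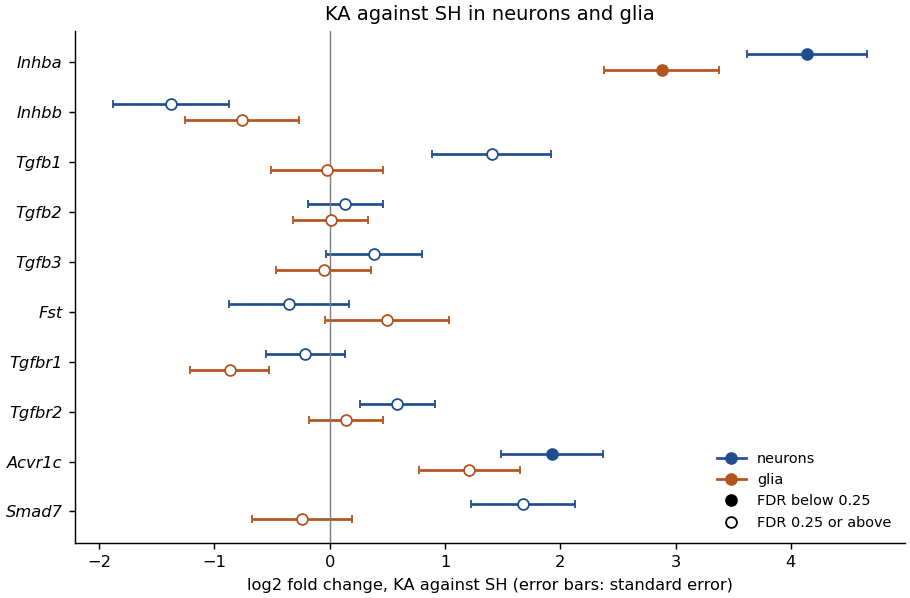
The logFC of KA against SH for each member in neurons and in glia, with bars of 1 standard error and filled points at an FDR below 0.25 by edgeR. Inhba is filled in both cell types (4.14 and 2.88) and Acvr1c in neurons (1.93), while Smad7 has 1.68 in neurons and -0.24 in glia.

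A further contrast, the KA effect in neurons minus that in glia, tested whether the cell types differed. No gene of the table passed it by edgeR, so 0% of genes and 0 of 10 members were called, 502 genes had an unadjusted p under 0.05, and DESeq2 called 34 genes but 0 members. Smad7 was the 1 member with an unadjusted p under 0.05. Its difference was 1.92 (standard error 0.62, FDR 1 by edgeR). The neurons and glia of 1 pool come from the same mice, and with the pool as a block 0.471% of genes were called, Smad7 among them, with a difference of 2.04 (standard error 0.33, FDR 0.0391). Smad7 in neurons amounted to 12.9%, 11.4% and 13.4% of Smad7 in glia in the SH pools and to 47.3%, 83.2% and 35.1% in the KA pools. The corresponding shares of microglial markers were 4.44%, 4.72% and 4.11% in SH and 5.54%, 7.73% and 6.57% in KA pools. Those of astrocytic markers were 11.6%, 22.1% and 31.3% in SH and 13.6%, 35.3% and 45.6% in KA pools. The single astrocytic markers differed, so the summed share is not that of each gene. Slc4a4 had means of 167 CPM in SH neurons and 164 CPM in SH glia, and 77.2 and 64.1 CPM in KA. Slc1a2 had 126 and 451 CPM in SH, and 177 and 257 CPM in KA. Slc1a3 had 69.3 and 788 CPM in SH, and 38.8 and 385 CPM in KA. Pericytic markers had 12.2%, 38.4% and 25.4% in SH and 22.3%, 44.2% and 56.2% in KA pools. For endothelial markers the shares were 48.1%, 75% and 115% in SH and 44.9%, 48.2% and 89.2% in KA pools. Oligodendrocytic and precursor markers reached at most 5.53% and 9.95% in any pool. The part of RNA from these cells in the neuronal values of Smad7 was not tested.

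The effect of KA on Inhba was larger in neurons by 1.26 (standard error 0.66, edgeR FDR 1), and with the pool block by 1.48 (FDR 0.497), so a difference between the cell types was not shown. For Tgfb1 it was 1.43 (standard error 0.70, edgeR FDR 1). Tgfb1 in neurons was 12.5%, 9.64% and 2.45% of its level in glia in the SH pools and 18.1%, 18.7% and 15.8% in the KA pools, where the microglial markers had the shares given for Smad7. For Acvr1c the difference was 0.72 (standard error 0.61). The contrasts in neurons, in glia and between them share their libraries.

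Without kainic acid, the members were divided between the cell types. In SH mice, the ligands Inhba and Tgfb2, the antagonist Fst and the receptor Acvr1c were higher in neurons, and Tgfb1, Tgfb3, Tgfbr1, Tgfbr2 and Smad7 were higher in glia. Fst had the largest difference towards neurons, 17.8 ± 3.96 CPM against 3.67 ± 2.68 CPM in glia (SD, n = 3; logFC 2.28, standard error 0.55, FDR 0.0119 by edgeR). Acvr1c had 44.7 ± 12.9 against 13.6 ± 3.67 CPM (logFC 1.72, FDR 0.0172), and Inhba 19.8 ± 6.80 against 6.45 ± 1.37 CPM (logFC 1.62, FDR 0.0363). Tgfb2 had 32.6 ± 5.25 against 18.3 ± 1.35 CPM (logFC 0.84, FDR 0.134). This call of Tgfb2 was lost with the size factors of DESeq2 in edgeR (FDR 0.308), which moved the median logFC of all genes in this contrast by -0.153, and Tgfb2 kept its call in 2 of 6 fits without 1 SH library. Without the low-input libraries, Inhba had an FDR of 0.265 and Tgfb2 one of 0.744.

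Of the genes higher in SH glia, Tgfb1 differed most, with 1.56 ± 0.726 CPM in neurons and 24.6 ± 13.5 CPM in glia (SD, n = 3; logFC -3.97, FDR 0.000269 by edgeR). Smad7 had 16.4 ± 7.66 against 130 ± 54.2 CPM (logFC -2.98, FDR 0.000643) and Tgfbr1 22.3 ± 6.90 against 136 ± 29.4 CPM (logFC -2.61, FDR 0.000253). Tgfbr2 followed with 9.45 ± 1.71 against 42.1 ± 9.72 CPM (logFC -2.16, FDR 0.000571). For each of these 4 genes, the 3 SH pools had more in glia, and the libraries did not overlap. Tgfb3 passed with overlap (9.56 ± 4.07 against 17.9 ± 4.08 CPM, logFC -0.91, FDR 0.232), a call kept in 2 of 6 fits without 1 SH library. Inhbb had 9.98 ± 4.66 against 17.8 ± 4.66 CPM, with a logFC of -0.83 and FDR values of 0.425 by edgeR and 0.106 with the pool block.

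In all, 4 members were higher in SH neurons and 5 in SH glia, where 12.3% and 7.57% of all genes tested were called in these directions. With the pool as a block these were 4 and 6 members, and 21.9% and 11.8% of all genes. Per kilobase, Smad7 led in SH glia (28.7 ± 12 CPM per kb, SD, n = 3) with Tgfbr1 (20.8 ± 4.51) overlapping it. Both stood apart from the members that followed, of which Tgfb3 was the next at 5.30 ± 1.21 CPM per kb. Fst was last at 0.80 ± 0.585 CPM per kb. In KA glia, Smad7 and Tgfbr1 still led with 24.3 ± 12.4 and 11.4 ± 2.92 CPM per kb, and Inhba came next with 7.40 ± 4.93 CPM per kb, whose range overlapped that of Tgfbr1.

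Beyond the members, 76 genes of the pathway were looked up by role, of which 74 could be tested. This list too was made with earlier results of these data known, so its counts and medians are descriptions. These list genes were 16 further ligands, 12 receptors and co-receptors, 18 extracellular binding and latency proteins, 16 SMADs and their regulators and 14 known target genes. Those that passed were all higher in KA, 3 in neurons and 4 in glia, and 0 were lower in either cell type by edgeR. Of all genes tested, 0.279% were called as higher and 0.0612% as lower in neurons, and 0.442% and 0.306% in glia. At an unadjusted p under 0.05, 3 list genes were lower in neurons and 3 in glia, where 1.33% and 2.69% of all genes were. DESeq2 called 2 and 1 as lower, where it called 0.609% and 3.23% of the genes with an adjusted p. The median logFC of the 74 genes was 0.17 in neurons, against 0.000475 for all genes, and 0.31 in glia, against 0.14. By role, it was 1.16 in neurons and 1.10 in glia for the 14 target genes. For the other roles it lay between -0.13 and 0.17 in neurons and between -0.16 and 0.38 in glia.

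In neurons, the list genes called as higher without the replicate block were Pmepa1, Cdkn1a and Ltbp1. Pmepa1, a target of TGF-beta whose product restrains SMAD signalling, had 22.8, 17.7 and 31.0 CPM in SH and 97, 115 and 145 CPM in KA neurons (logFC 2.32, standard error 0.42, FDR 0.0581 by edgeR). In glia its logFC was 1.49 with an FDR of 0.274, and of 0.00211 with the replicate block. Cdkn1a encodes the cell cycle inhibitor p21, which also answers to p53. It had 4.36, 4.34 and 5.80 CPM in SH and 19.7, 29.5 and 65.9 CPM in KA neurons (logFC 2.99, standard error 0.59, FDR 0.0893). Cdkn1a was higher in glia, at 34.9 to 100 CPM in SH and 47.3 to 230 CPM in KA, so that the neuronal level was 4.33% to 16.6% of the glial level in SH and 11.7% to 62.3% in KA pools. Ltbp1, whose product holds latent TGF-beta in the extracellular matrix, had 6.05, 5.52 and 5.92 CPM in SH and 11.4, 16.5 and 25.2 CPM in KA neurons (logFC 1.60, standard error 0.33, FDR 0.0976). These calls rested on few libraries. Pmepa1 kept its call in 3, Cdkn1a in 2 and Ltbp1 in 1 of the 6 fits without 1 library of neurons, and 0 of the 3 passed without SH neurons replicate 1, SH neurons replicate 2 or KA neurons replicate 3.

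In glia, 3 of the 4 list genes called as higher without the block are known targets of TGF-beta. Fn1 encodes fibronectin of the extracellular matrix and rose from 18.2, 21.4 and 11.5 CPM to 60.1, 88.5 and 220 CPM (logFC 2.85, standard error 0.48, FDR 0.0284 by edgeR), a call kept in all 6 fits without 1 library of glia. Ccn2, a matrix-associated growth factor, went from between 3.86 and 5.84 CPM to between 11.2 and 26.3 CPM (logFC 1.77, FDR 0.182). Junb, a subunit of AP-1 that neuronal activity also induces, went from between 32.5 and 105 CPM to between 150 and 504 CPM (logFC 2.23, FDR 0.245). Fstl4, a relative of follistatin, had 10.1 to 21.8 CPM in SH and 33.6 to 79.8 CPM in KA glia (logFC 1.90, FDR 0.131). Ccn2, Junb and Fstl4 each kept the call in 2 of 6 fits without 1 library of glia. All of these 3 lost it without any of SH glia replicates 1 and 3 and KA glia replicates 2 and 3.

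Markers of cells that make matrix proteins moved as follows beside these genes. Endothelial markers summed to between 10.7 and 39.2 CPM in SH and between 19.5 and 58.1 CPM in KA glia, pericytic markers to between 61.5 and 121 against 30.5 to 74.8 CPM, and fibroblast markers to between 30.4 and 56.1 against 23.6 to 57.9 CPM. Fstl4 in KA glia was 38.6% to 48.2% of its level in neurons, Ccn2 47.4% to 75.4%, Junb 67.1% to 107% and Fn1 80.1% to 185%. The summed neuronal markers had 7.55% to 22.5%. In SH pools these shares were 20.7% to 32.1%, 25.4% to 94.9%, 29.7% to 146% and 14.5% to 40.3%, against 9.62% to 25.9% for the markers, and in SH pool 3 Fn1 (14.5%) was below them (18.8%). The part of RNA from neurons or other cells in these glial values was not tested.

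**Figure D4:**
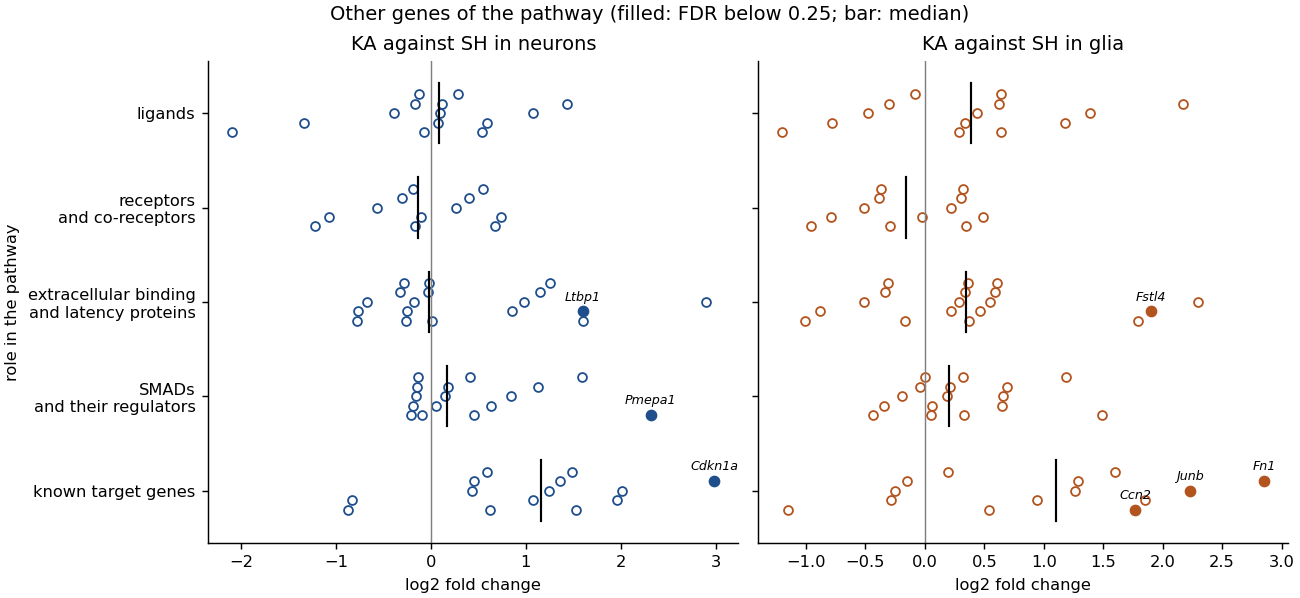
The logFC of KA against SH for the 74 other genes of the pathway that were tested, by role, in neurons (left) and glia (right), with genes at an FDR below 0.25 filled and named and a bar at the median of each role. The 7 filled points lie to the right of 0, and the medians of the known target genes are 1.16 and 1.10.

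With the replicate block, 16 list genes were called as higher and 2 as lower in neurons, and 9 as higher and 5 as lower in glia, of 74 each. The block called 1.94% and 1.11% of all genes in these directions in neurons, and 3.47% and 4.17% in glia. Among those higher in neurons, picked after their values were seen, were Thbs1 (logFC with the block 2.88, FDR 0.00474 by edgeR), Tgfbi (2.02, FDR 0.0025) and Tgfb1i1 (1.59, FDR 0.0102). Without the block, these genes had FDR values of 0.366, 0.418 and 0.297. The lower calls are few and are given as values only. The genes lower in neurons, named here after their values were seen, were Lefty1, an antagonist of Nodal (logFC with the block -2.15, FDR 0.0137 by edgeR), and Bambi, a pseudoreceptor that dampens TGF-beta signals (-1.14, FDR 0.0955). Those lower in glia were Bmp4, Acvr2b, Chrd, Itgb8 and Id4, with logFC from -1.36 for Id4 to -0.98 for Acvr2b. Itgb8 belongs to an integrin that releases active TGF-beta.

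The protein-coding genes with the pattern most like that of Inhba over the 12 libraries, by Pearson's r of log2 CPM, were Dgat2l6 (0.967), Nptx2 (0.961), Gal (0.957), Gpr3 (0.957) and Cdh13 (0.955). For Acvr1c they were Rara (0.987), Galnt14 (0.976), Grm8 (0.976), C2cd4b (0.967) and Cemip2 (0.966). Inhba and Acvr1c correlated with each other at 0.927, whereas Inhba and Smad7 had -0.0883. These values describe 12 libraries from 6 pools of mice, and they follow the differences between cell types and treatments alike.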

How the data were processed

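RNA of sorted nuclei was measured by mRNAseq (SMART-Seq v4) in 12 libraries, grouped by the labels into KA and SH neurons and glia; RRBS data were not used here. The authors trimmed reads (Trim Galore 0.4.3), aligned them to mm10 with Rsubread and counted reads per gene with featureCounts and GENCODE M16. The deposited values are whole-number read counts without normalization. Counting ignored strand, and genes annotated on the opposite strand each overlap between 1.81% and 7.6% of the exon bases of Acvr1c, Tgfb2, Fst or Tgfb3. For Tgfb3 these are Gm37804 (4.82%) and Gm48008 (7.6%). Some libraries were sequenced as single and others as paired reads, and which is not given in the sources used here.

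Symbols were taken from GENCODE M21 (53274 of 53379 genes). After filterByExpr (minimum count 10, minimum total 15) and TMM, edgeR 4.0.16 in R 4.3.3 (limma 3.58.1) fitted 4 group means to all 12 libraries by quasi-likelihood (legacy=TRUE), with Benjamini-Hochberg adjustment over 37598 genes and an FDR threshold of 0.25. Standard errors are logFC over the square root of F. P values of this fit measure the spread between libraries, estimated over both cell types together. They ignore that neurons and glia share pools. The test was tried on simulated counts, which held no effect of replicate or pool, so the trial cannot speak for data with such effects. KA and SH libraries of the same replicate number deviated together from their group means (correlations of 0.399, 0.264 and 0.551 in neurons and 0.457, 0.543 and 0.764 in glia), so the number was also fitted as a block. Between cell types the pool was the block, since both fractions came from the same mice. Alternatives were other scalings, filters, tests (DESeq2 1.42.0), gene IDs, fits and thresholds, and libraries left out.

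The members and gene lists were chosen with earlier results of these data known. All 10 members are named, of the other pathway genes those past the threshold in either cell type, and for each called member the 5 most correlated of 20345 protein-coding genes. A pathway gene was left out of the list and is not reported. Promoter sequences are from RefSeq (7 of 10 members used). Pathway genes, role clauses and markers come from general knowledge. Figures were drawn with matplotlib 3.10.9.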

Additional observations from a re-analysis of the deposited data

Results flagged for a closer look

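With the pool as a block, edgeR called a different KA effect in neurons and glia for 2 of the genes named above. It called 0.471% of all genes tested with this block, and no gene without it. For Smad7, the effect was larger in neurons by 2.043 on the log2 scale (standard error 0.332, FDR 0.0391 by edgeR), and the KA library of neurons was above the SH library of the same number in 3 of 3 cases, against 1 of 3 in glia. For Fn1, the effect was smaller in neurons, by -2.087 (FDR 0.0845). Without the block, these values were 1.92 and -2.23, with an FDR of 1 each. Bmp2, picked after its values were seen, had 1.91 with the block (FDR 0.166 by edgeR) and, without it, was the 1 list gene that DESeq2 called, with 1.92 (FDR 0.202).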

How the results depend on the processing

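With 3 pools per group, calls near the threshold turned on single libraries. The number of upregulated members in neurons, 2, became 4 with the replicate block, 3 by DESeq2 and in separate fits, and 1 at an FDR of 0.05, without the low-input libraries or without the replicate 3 libraries, and lay between 1 and 2 without 1 library, where Acvr1c was lost without any of SH neurons replicates 1, 2 and 3 and KA neurons replicates 2 and 3. That of downregulated members, 0, became 1 with the block in neurons and in glia. In glia, 1 upregulated member became 2 by DESeq2 or with the block and 0 without the low-input or the replicate 3 libraries. The block by pool moved the members that differ between cell types from 0 to 1. Members higher in SH neurons fell from 4 to 2 without the low-input libraries. Of the results between cell types, the block changed the call of Inhbb and Smad7, and of KA against SH those of Smad7, Tgfb1 and Inhbb in neurons and Acvr1c and Tgfbr1 in glia. Directions that turned belonged to members that were not called. Tgfb2 in glia went to -0.0298 (size factors of DESeq2), -0.099 (no filter), -0.0314 (DESeq2), -0.0222 (edgeR 4), -0.0506 (block) and -0.0862 (without replicate 3), Tgfb1 in glia to 0.0343 (block) and 0.0823 (separate fits) and Tgfb3 in glia to 0.0549 (separate fits). Without the low-input libraries, Fst and Tgfbr2 in glia went to -0.662 and -0.19 and the difference of Fst to 0.305. The difference of Inhbb went to 0.217 without replicate 3. Without 1 library, logFC in glia ranged from -0.512 to 0.44 for Tgfb1, -0.195 to 0.186 for Tgfb2, -0.539 to 0.175 for Tgfb3, -0.735 to 0.104 for Smad7, -0.367 to 1.28 for Fst and -0.0248 to 0.345 for Tgfbr2, and the difference from -0.0569 to 0.323 for Tgfb2 and from -1.63 to 0.0108 for Fst. For the pathway list, alternatives were added after seeing the data. The 3 and 4 upregulated genes in neurons and glia became 9 and 10 by DESeq2, 6 and 7 by edgeR 4, 14 and 2 in separate fits, 0 and 1 at an FDR of 0.05, 3 and 1 without the low-input and 1 and 0 without the replicate 3 libraries, and 0 to 4 and 1 to 5 without 1 library. Libraries were not left out of the fits with a block. The cause of these changes was not tested.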
